A study of Mus musculus with 8 samples.

Results

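The miR-15 and miR-16 extended family was followed in mouse liver through 9 mature microRNAs (miRNAs) chosen by name, out of 454 names in a table of tag counts. They are the 5p arms mmu-miR-15a-5p, mmu-miR-15b-5p, mmu-miR-16-5p, mmu-miR-195a-5p, mmu-miR-322-5p and mmu-miR-497a-5p and the 3p arms mmu-miR-15b-3p, mmu-miR-195a-3p and mmu-miR-322-3p, written below without the mouse prefix mmu. All 9 had counts in at least 1 library. The libraries came from livers of male C57BL/6J mice, an inbred strain, aged 10 to 11 weeks, which for 2 weeks ate either chow (the labels also call it the normal diet) or a high-fructose diet (HFrD), the diet used in the study to model fatty liver, with 4 samples per diet. HFrD took 10% of its calories from fat, 70% from carbohydrate and 20% from protein, per the labels. The labels used here give no such shares for chow, and fructose and the other differences between the diets cannot be told apart. Nothing in the labels says that each sample came from its own mouse, so the spread behind every p-value is that of these samples and may be technical.

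A miRNA is cut from a hairpin precursor, and either the 5p or the 3p arm can be loaded into an Argonaute protein. The loaded arm finds messenger RNAs mainly through its seed, bases 2 to 8 from the 5′ end, so miRNAs with the same seed share many targets. The miR-15 and miR-16 family is known as a brake on the cell cycle and a promoter of cell death, through targets that include Ccnd1, Ccne1, Cdk6 and Bcl2.

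The 6 mature 5p arms are printed because their common seed defines the family. They are written 5′ to 3′ from RefSeq on GRCm38.p6, with the seed in capitals, and all 9 members had the same bases there and in the deposited table.
miR-16-5p: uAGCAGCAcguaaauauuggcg
miR-195a-5p: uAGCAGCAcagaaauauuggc
miR-15a-5p: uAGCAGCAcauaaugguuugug
miR-15b-5p: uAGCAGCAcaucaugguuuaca
miR-497a-5p: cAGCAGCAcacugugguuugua
miR-322-5p: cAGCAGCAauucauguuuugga
No other entry of the table, predicted miRNAs included, had this seed. Beyond the seed the arms diverge. Compared base by base from the 5′ end, miR-16-5p and miR-195a-5p were identical at 19 of 21 positions and miR-15a-5p and miR-15b-5p at 18 of 22. The least alike pairs were miR-16-5p with miR-497a-5p, identical at 11 of 22 positions, and miR-195a-5p with miR-322-5p, at 11 of 21. How reads with more than 1 matching miRNA were counted was not given in the sources used here, and the split of counts within the close pairs is uncertain.

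The opposite arms are shown because their seeds differ from each other and from the family's, so they are not members by seed. They are written in the same way.
miR-15b-3p: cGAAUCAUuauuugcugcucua
miR-16-1-3p: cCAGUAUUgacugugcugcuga
miR-16-2-3p: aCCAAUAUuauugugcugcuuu
miR-195a-3p: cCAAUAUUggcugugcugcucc
miR-322-3p: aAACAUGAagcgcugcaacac

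The hairpins sit in 4 clusters of GRCm38, given here from GENCODE M21. Mir15a (chromosome 14, 61632027 to 61632110, minus strand) and Mir16-1 (61631880 to 61631972) lie 54 bases apart within the non-coding host gene Dleu2, Mir15a in an intron and Mir16-1 overlapping an exon of a transcript. Mir15b (chromosome 3, 69009772 to 69009835, plus strand) and Mir16-2 (69009902 to 69009996) lie 66 bases apart in an intron of Smc4, which encodes a condensin subunit. Mir497 (chromosome 11, 70234717 to 70234800, plus strand), the precursor of miR-497a, and Mir195a (70235042 to 70235135) lie 241 bases apart. Mir322 (chromosome X, 53054255 to 53054349, minus strand) lies 200 bases from Mir503, in a cluster that also holds Mir351, Mir542 and the Mir450 genes. No host gene of another type overlaps the chromosome 11 and X hairpins in that annotation. Mir322 is the mouse counterpart of human MIR424. Because Mir16-1 and Mir16-2 give the same 5p arm, miR-16-5p counts come from the chromosome 14 and chromosome 3 clusters together.

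The libraries held 1120035 to 1638036 counts, so that 1 count was worth 0.610 to 0.893 CPM (counts-per-million units). Levels below are CPM over library sizes scaled by the trimmed mean of M-values (TMM), a scaling that sets the bulk of miRNAs equal between libraries. The hepatocyte markers miR-122-5p, miR-122-3p, miR-192-5p and miR-194-5p together reached 243414 to 266900 CPM in chow and 214397 to 250739 CPM in HFrD. The TMM factors were 1.02, 0.963, 0.960 and 0.894 in chow replicates 1 to 4. In HFrD replicates 1 to 4 they were 1.13, 1.04, 0.972 and 1.04. Chow replicate 4 thus had the lowest factor and HFrD replicate 1 the highest.

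The family was a small part of the liver miRNA pool. Its 6 seed-sharing arms together had 1323 counts over all 8 libraries, 0.0126% of all counts. miR-16-5p was the most abundant member and stood 92nd of 443 mature sequences by total counts, followed by miR-322-3p (94th), miR-497a-5p (100th), miR-195a-5p (116th), miR-15b-5p (138th), miR-322-5p (165th), miR-195a-3p (168th), miR-15b-3p (208th) and miR-15a-5p (257th). Levels of different miRNAs were set side by side as deposited, and the selection of small RNA, which can favour some sequences, was not given in the sources used here.

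**Figure D1:**
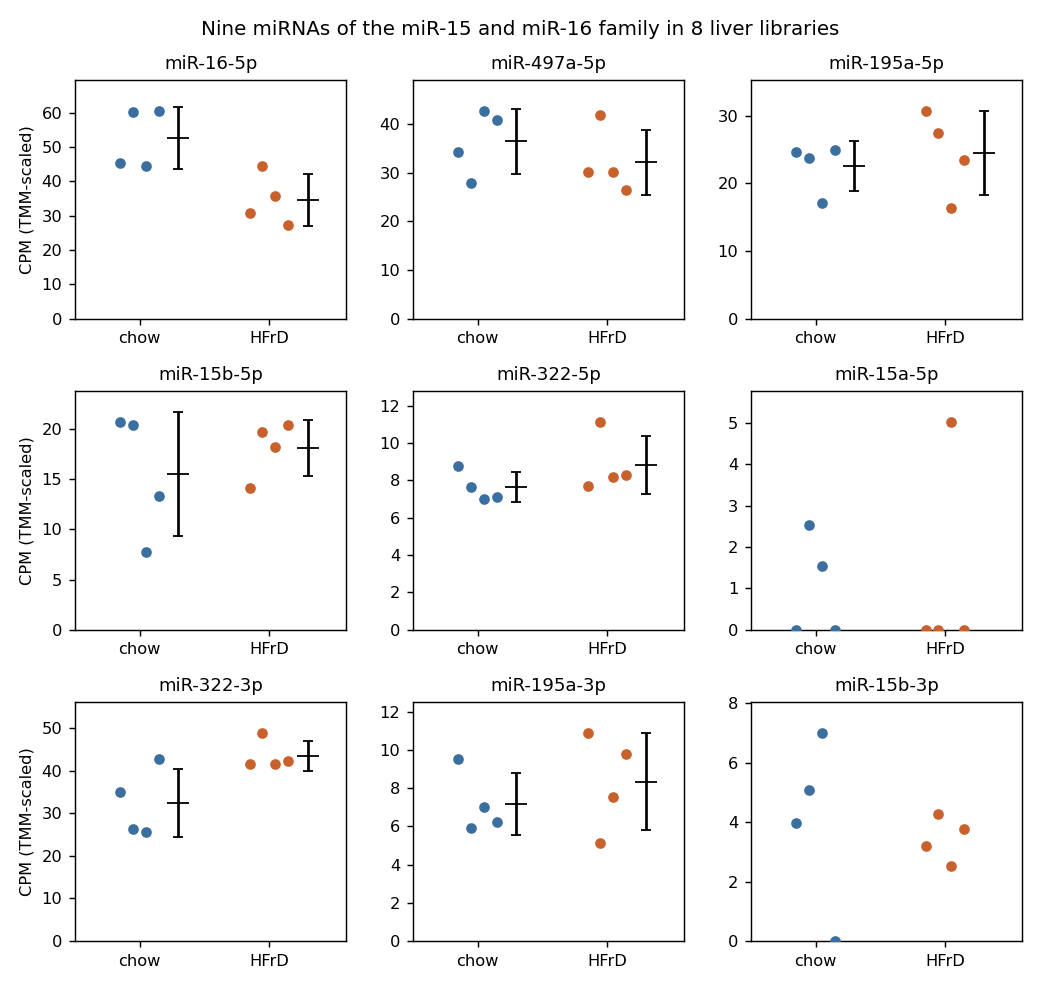
Level of each member in every library in CPM over the TMM-scaled library size (vertical axes start at 0), with chow in blue and HFrD in orange, points for single libraries and black bars for the mean ± SD (n = 4), left out for the 2 members with blank cells. For miR-16-5p 3 of 4 HFrD points lie below all chow points. For miR-322-5p and miR-322-3p all HFrD points lie above 3 of 4 chow points, and the remaining members overlap more widely.

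Levels after HFrD were compared with those on chow. No member passed the threshold, an adjusted p of 0.05 in edgeR's quasi-likelihood test with Benjamini-Hochberg adjustment over the 170 miRNAs tested. Of all tested miRNAs 5.88% passed, 3.53% as lower and 2.35% as higher. The filter on low counts left 6 of the 9 members in the test, and miR-15a-5p, miR-15b-3p and miR-195a-3p did not pass that filter. At an unadjusted p under 0.05 miR-16-5p was lower and miR-322-3p higher, where 23.5% of all tested miRNAs reached that level, 10.6% as lower and 12.9% as higher. DESeq2 called 1 of 5 members it gave an adjusted p, miR-16-5p, and 14 of 140 miRNAs in all (10%). The median log2 fold change of the 6 tested members was 0.15, against 0.01 for all 170, and 4 of the 6 estimates lay above 0, where 52.4% of all tested miRNAs did. In liver tissue, fewer cells of a type that holds a miRNA and less of it per cell cannot be told apart.

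miR-16-5p, the founding member of the family and a direct repressor of cyclin D1 and Bcl2, was the member with the largest estimated difference. Its counts were 57, 71, 57 and 68 in chow replicates 1 to 4 and 48, 52, 57 and 36 in HFrD replicates 1 to 4. In CPM, chow replicates 1 to 4 had 45.4, 60.3, 44.3 and 60.5 and HFrD replicates 1 to 4 had 30.7, 44.5, 35.8 and 27.2. HFrD replicates 1, 3 and 4 lay below every chow library, and HFrD replicate 2 lay just above the lowest chow library. The means were 52.6 ± 8.98 CPM in chow and 34.6 ± 7.52 CPM in HFrD (SD, n = 4 each). The log2 fold change of miR-16-5p was −0.61 (SE 0.20, 95% interval −1.02 to −0.20), or 1.52-fold lower after the diet, with an adjusted p of 0.0588 in edgeR (unadjusted p = 0.00623). The call thus missed the threshold, and it lay close enough to it to pass in 4 of 15 alternatives. The adjusted p was 0.0490 in DESeq2, 0.0404 without chow replicate 3 and 0.0348 without HFrD replicate 2, both in edgeR. Chow replicate 3 held the lowest chow level and HFrD replicate 2 the highest HFrD level, so leaving out either widened the difference. With the replicate number, not known to pair samples, as a block, the adjusted p in edgeR was 0.0464. Over all 15 alternatives it ran from 0.0348 to 0.242 and the log2 fold change from −0.74 to −0.49. Without chow replicate 4 the log2 fold change was −0.56 (adjusted p = 0.132, edgeR). Counting error alone was wide at this depth. Over library totals, the highest value, 58.0 CPM in chow replicate 2 (71 of 1223473 counts), had a 95% Clopper-Pearson interval of 45.3 to 73.2, and the lowest, 28.3 CPM in HFrD replicate 4 (36 of 1273859), one of 19.8 to 39.1. Such intervals cover counting error only, since several reads may stem from 1 molecule.

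miR-16-5p is also abundant in red blood cells, so the erythroid markers were read beside it. miR-451a, miR-144-3p, miR-144-5p and miR-486a-5p, counted with its identical copy miR-486b-5p, all passed the filter and none of the 4 passed the test, with log2 fold changes of 0.06 to 0.26. Their summed level was 92.4 to 111 CPM in chow and 83.9 to 164 CPM in HFrD. By library it was 92.4, 93.4, 111 and 100.5 CPM in chow replicates 1 to 4, and 83.9, 164, 93.6 and 110.3 CPM in HFrD replicates 1 to 4. The lowest and the highest value were both in HFrD, the highest in replicate 2, the HFrD library with the most miR-16-5p. The part of red blood cells in the level of miR-16-5p was not tested. Without HFrD replicate 2 the log2 fold change of miR-16-5p was −0.74 (adjusted p = 0.0348, edgeR). Leaving out the HFrD library with the most miR-16-5p widens the difference whatever its erythroid level, so this value does not bear on red blood cells.

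Among the markers of liver cell types, 1 of 2 endothelial and 1 of 4 hepatocyte markers were called, both lower. Of all tested miRNAs 5.88% were called, 3.53% as lower. The endothelial markers miR-126a-3p and miR-126a-5p summed to 7437 to 10079.5 CPM in chow and 5890 to 6863 CPM in HFrD with no overlap. Of single tested miRNAs, 14.1% did not overlap in TMM-scaled CPM. Over library totals the diets overlapped for miR-126a-3p, which made up most of that sum, and for miR-126a-5p. miR-126a-3p was called lower (log2 fold change −0.43, adjusted p = 0.0123, edgeR), while miR-126a-5p was not (−0.12, adjusted p = 0.504). Of the 4 hepatocyte markers, miR-122-3p was called lower (log2 fold change −0.64, adjusted p = 0.0110, edgeR) and the other 3 were not (adjusted p from 0.0987 for miR-122-5p to 0.936 for miR-192-5p). The stellate and fibroblast sum overlapped between diets (4415 to 4955 and 3792 to 5182 CPM), as did the myeloid sum (6.997 to 22.2 and 10.3 to 17.6 CPM), the lymphoid sum (6.997 to 15.1 and 10.9 to 15.9 CPM) and the muscle sum (541 to 736 and 549.8 to 633 CPM). The lymphoid marker miR-155-5p had blank cells in all chow libraries, and miR-133a-3p of the muscle list had no entry under that name. The part of these cell types in the level of miR-16-5p was not tested.

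miR-15b-5p shares a primary transcript with Mir16-2 and has the same seed as miR-16-5p. Its CPM were 20.7, 20.4, 7.77 and 13.3 in chow and 14.1, 19.7, 18.2 and 20.4 after HFrD. Every HFrD library fell within the chow range, and chow replicate 3 was the lowest of all 8. The log2 fold change was 0.21 (SE 0.29, 95% interval −0.39 to 0.81, adjusted p = 0.647, edgeR), so the data allow anything from a fall to a clear rise. Its sign rested on chow replicate 3, without which it was −0.02.

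miR-15a-5p, from the Dleu2 cluster that is deleted in many human leukaemias, was at the edge of detection. It had 3 and 2 counts in chow replicates 2 and 3 and 8 counts in HFrD replicate 3, and its cells were blank in the other 5 libraries. The table lists no value under 2, so a blank cell is not a measured 0. Both guide arms of the chromosome 14 pair were thus measured very unequally, with 13 counts for miR-15a-5p and 446 for miR-16-5p over all libraries, the latter from both of its loci.

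The pair on chromosome 11, miR-195a-5p and miR-497a-5p, is known for restraining cell division in muscle and heart of mice. miR-497a-5p had CPM of 34.2, 28.0, 42.8 and 40.9 on chow, and after HFrD 30.1, 42.0, 30.2 and 26.4. miR-195a-5p had CPM of 24.7, 23.8, 17.1 and 24.9 on chow, and after HFrD 30.7, 27.4, 16.3 and 23.4. The diets overlapped for both, and neither order was steady across libraries. The log2 fold change was −0.19 for miR-497a-5p (SE 0.21, 95% interval −0.63 to 0.25, adjusted p = 0.551, edgeR). For miR-195a-5p it was 0.11 (SE 0.24, 95% interval −0.39 to 0.62, adjusted p = 0.782, edgeR), and −0.02 without HFrD replicate 1. The level order put miR-497a-5p above miR-195a-5p in 7 of 8 libraries, the exception being HFrD replicate 1.

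From the X-linked cluster, miR-322-5p carries the family seed and was rare, with 8 to 13 counts per library. Its CPM were 8.76, 7.64, 6.997 and 7.12 on chow, and after HFrD 7.68, 11.1, 8.17 and 8.31. The log2 fold change was 0.19 (SE 0.28, 95% interval −0.40 to 0.78, adjusted p = 0.705, edgeR). The other arm, miR-322-3p, which has a different seed, was several times more abundant. It had 35.0, 26.3, 25.7 and 42.7 CPM in chow and 41.6, 48.8, 41.5 and 42.3 CPM in HFrD. All 4 HFrD libraries lay above chow replicates 1, 2 and 3, and chow replicate 4 lay among them. The means of miR-322-3p were 32.4 ± 8.07 CPM on chow and 43.6 ± 3.53 CPM on HFrD (SD, n = 4 each). Its log2 fold change was 0.43 (SE 0.20, 95% interval 0.01 to 0.84), which did not pass (adjusted p = 0.195 in edgeR, unadjusted p = 0.0458), nor under any of 15 alternatives, over which the adjusted p ran from 0.0624 to 0.417. In CPM of library totals its diets did not overlap, as was so for 15.9% of tested miRNAs; in TMM-scaled CPM they did.

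The 2 remaining 3p arms were rarer. miR-195a-3p had 6 to 17 counts per library, 7.18 ± 1.64 CPM in chow and 8.35 ± 2.55 CPM in HFrD (SD, n = 4 each). miR-15b-3p had 4 to 9 counts in 7 libraries, with its cell blank in chow replicate 4. Fitted with no filter, where all 443 sequences were tested, the log2 fold changes were 0.29 (SE 0.42) for miR-195a-3p and −0.20 (SE 0.65) for miR-15b-3p, with adjusted p of 0.722 and 0.912 in edgeR. For miR-15a-5p that fit gave 0.42 with an SE of 1.26 (adjusted p = 0.904, edgeR), which sets no useful limit on a difference in either direction.

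**Figure D2:**
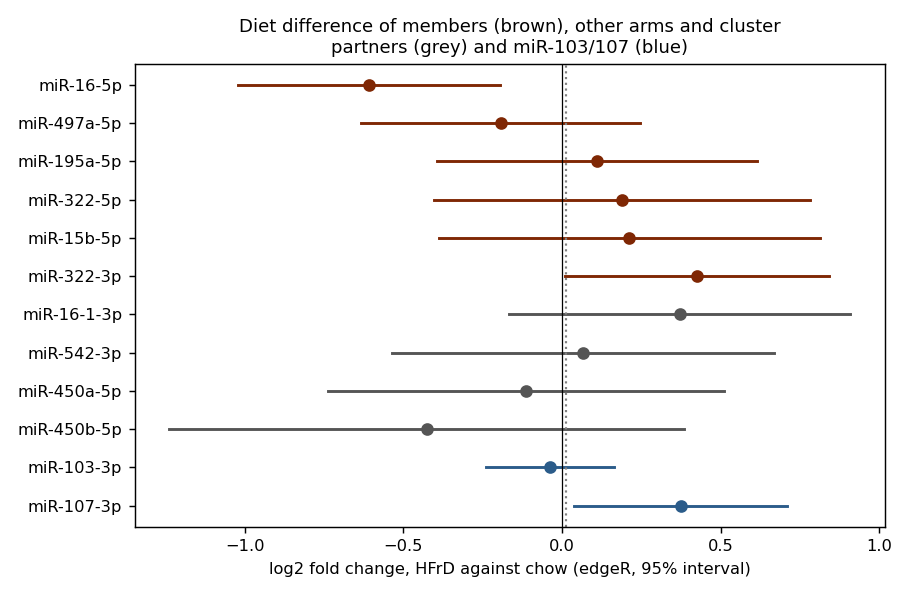
Log2 fold change of HFrD against chow from edgeR with its 95% interval, for the 6 tested members (brown), their other arms and cluster partners (grey) and miR-103-3p and miR-107-3p (blue), with a solid line at 0 and a dotted line at the median of all tested miRNAs. Of the members, miR-16-5p (−0.61) and miR-322-3p (0.43) have intervals that leave out 0, before adjustment for the number of miRNAs tested.

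How much of the spread is counting was read from the variance within diets divided by the variance that counting alone would give. It was 1.97 for miR-16-5p, 1.87 for miR-15b-5p, 1.63 for miR-497a-5p, 1.61 for miR-195a-5p, 1.37 for miR-322-3p and 0.229 for miR-322-5p. For the far more abundant miR-103-3p it was 13.2. The members' replicates therefore varied less than 2 times as much as counting, with the exception of miR-15a-5p (4.30).

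Because arms with one seed can act on the same targets, the 6 were also summed. The sum was 134, 143, 121 and 147 CPM in chow and 113, 145, 114 and 106 CPM in HFrD. HFrD replicates 1, 3 and 4 lay below every chow library and HFrD replicate 2 was the second highest of all 8. This order depended on the scaling, since over library totals the sum was 136, 137, 116 and 131 CPM in chow and 128, 151, 110.5 and 109.9 CPM after HFrD. There HFrD replicate 2 was the highest and HFrD replicate 1 lay within the chow range. The mean was 136 ± 11.6 CPM in chow and 119 ± 17.3 CPM after HFrD (SD, n = 4 each), giving a log2 ratio of −0.19, and of −0.06 over library totals. No test was made of this sum over chosen members. Without miR-16-5p the sum was 83.3 ± 5.36 CPM in chow and 84.8 ± 10.5 CPM after HFrD, giving a log2 ratio of 0.03.

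Within the sum, the share of miR-16-5p was 33.9%, 42.3%, 36.8% and 41.2% in chow and 27.1%, 30.8%, 31.5% and 25.7% in HFrD, so that every HFrD value was lower. The share of miR-322-5p was 4.85% to 6.55% in chow and 6.78% to 7.86% in HFrD, so that every HFrD value was higher. These shares are tied, since a lower share of miR-16-5p raises those of the other arms. In CPM the diets overlapped for miR-322-5p, which had 8 to 13 counts per library. A share does not depend on library scaling. These shares were not tested, since they were built from members chosen with results known, and they have no counterpart over all miRNAs. miR-497a-5p held 27.2% ± 6.55 of the sum in chow and 26.8% ± 1.65 in HFrD, miR-195a-5p 16.6% ± 1.77 and 20.6% ± 5.37, miR-15b-5p 11.3% ± 4.27 and 15.3% ± 3.03, and miR-322-5p 5.64% ± 0.721 and 7.38% ± 0.491 (SD, n = 4 each). The order of the 5 by mean share was the same in both diets, with miR-16-5p close to miR-497a-5p in HFrD.

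**Figure D3:**
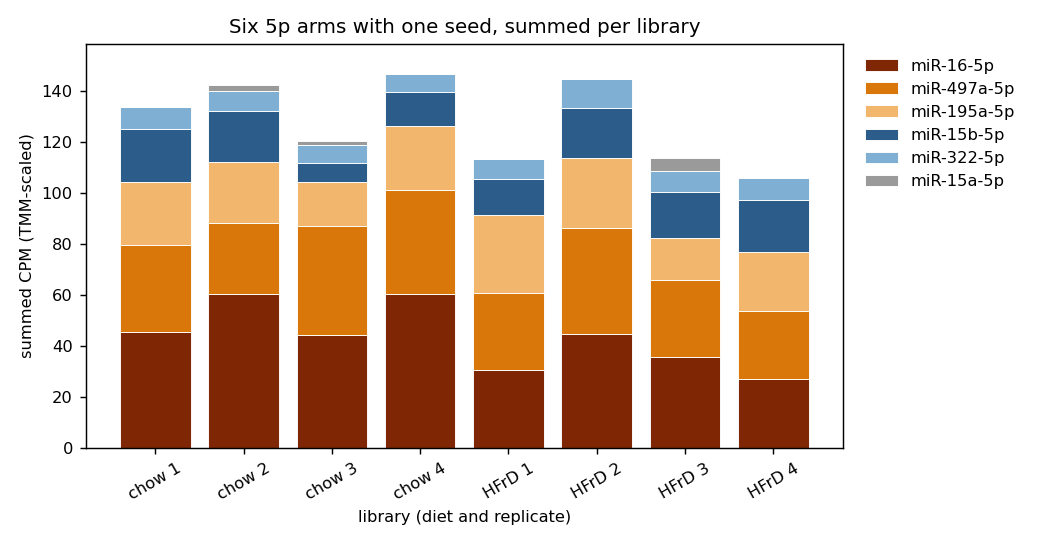
Summed level of the 6 arms with the family seed in each library in CPM over the TMM-scaled library size, with the library on the horizontal axis and each colour 1 arm. The lowest segment, miR-16-5p, is 44.3 to 60.5 CPM in chow and 27.2 to 44.5 CPM in HFrD, while the rest of the bar averages 83.3 CPM in chow and 84.8 CPM in HFrD.

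The level of a 5p arm over that of the 3p arm in the same library is nearly free of library scaling. It was tested with limma on log2 of the 5p over the 3p arm (0.5 CPM added to each) over the 51 hairpins with both arms counted. None passed an adjusted p of 0.05 (0% of hairpins), while 3 of them (5.88%) reached 0.05 before adjustment, mir-16-1 with the smallest p. The log2 ratio of miR-16-5p to miR-16-1-3p was 0.87, 2.20, 1.79 and 1.81 in chow and 0.29, 1.04, 1.00 and 0.26 in HFrD. HFrD ratios lay below those of chow replicates 2, 3 and 4, and chow replicate 1 lay among them. The difference was −1.02 (SE 0.35, 95% interval −1.82 to −0.21, adjusted p = 0.520, unadjusted p = 0.0190, limma). In pooled counts miR-16-5p made up 75.7% of the counts of miR-16-5p and miR-16-1-3p in chow and 61.3% in HFrD, which is not the arm use of 1 hairpin because miR-16-5p has 2 loci.

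Behind this ratio, miR-16-1-3p, which is made from the chromosome 14 hairpin alone, had 31, 15, 16 and 19 counts in chow and 39, 25, 28 and 30 after HFrD. The log2 fold change of that arm was 0.37 (SE 0.26, 95% interval −0.17 to 0.91, adjusted p = 0.419, edgeR), opposite in sign to that of miR-16-5p, and neither passed. miR-16-2-3p, the matching arm of the chromosome 3 hairpin, had 3 counts in chow replicate 4 and blank cells in the other 7 libraries. The share of miR-16-5p that came from each locus cannot be told apart.

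As for mir-16-1, no change of the arm ratio was called for the other hairpins of the family. For mir-322 the log2 ratio was −1.99 ± 0.350 in chow and −2.25 ± 0.120 in HFrD (SD, n = 4 each), and the 3p arm was above the 5p arm in 8 of 8 libraries. With 86 counts for miR-322-5p and 400 for miR-322-3p, the 3p arm dominated, as in 22 of the 51 hairpins. For mir-195a the log2 ratio was 1.59 ± 0.367 and 1.51 ± 0.557, and for mir-15b 2.23 ± 1.85 and 2.25 ± 0.282 (SD, n = 4 each), both with more 5p than 3p in 8 of 8 libraries. The difference between diets was −0.27 for mir-322 (SE 0.24, 95% interval −0.81 to 0.28, adjusted p = 0.696, limma), −0.08 for mir-195a (SE 0.34, 95% interval −0.85 to 0.69) and 0.02 for mir-15b (SE 0.81, 95% interval −1.83 to 1.87), the last 2 with adjusted p of 0.980. For mir-15b the ratios of chow replicates 3 and 4 lay far apart, at 0.14 and 4.64, the latter with a blank cell for miR-15b-3p. The SE was 0.64 without chow replicate 3 and 0.51 without chow replicate 4.

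**Figure D4:**
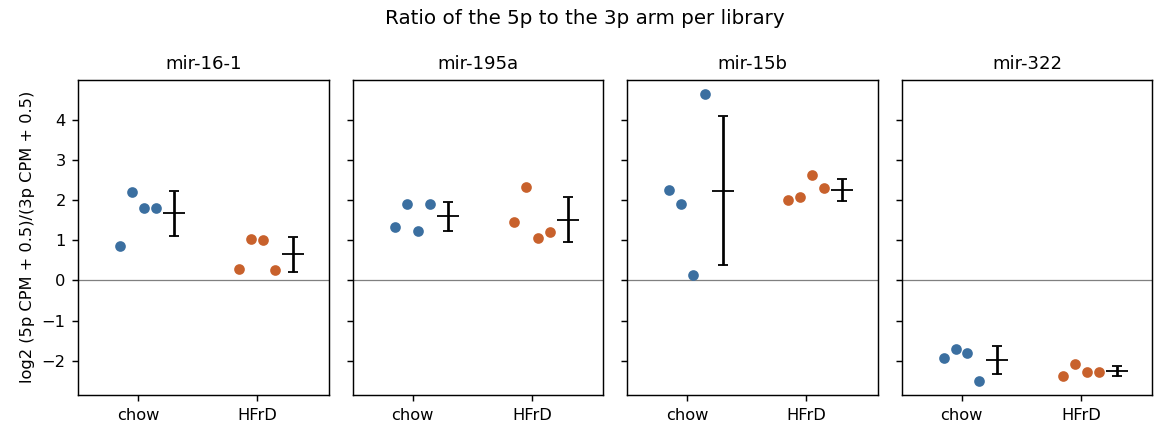
Log2 of 5p over 3p level, with 0.5 CPM added to each, per library for 4 hairpins, with chow in blue, HFrD in orange and black bars for the mean ± SD (n = 4). mir-322 lies below 0 in every library, the other 3 lie above 0, and the means of mir-16-1 are 1.66 in chow and 0.65 in HFrD.

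Guide arms of 1 cluster were also set against each other, in 4 of 7 pairs that had enough counts. Each was tested by exact permutation, two-sided, with 70 ways to assign the samples and a smallest possible p of 0.0286, which adjusts to 0.114 over the 4 pairs when 1 pair alone reaches it. The log2 ratio of miR-16-5p to miR-15b-5p was 1.11, 1.54, 2.43 and 2.13 in chow and 1.10, 1.16, 0.96 and 0.41 in HFrD. Of the HFrD libraries, replicate 2 alone lay above the lowest chow library. The difference was −0.90 (exact permutation p = 0.0571, 0.229 adjusted over the 4 pairs), which did not pass. For miR-195a-5p to miR-497a-5p it was 0.27 (exact permutation p = 0.429), for miR-322-5p to miR-450a-5p 0.26 (exact permutation p = 0.486) and for miR-322-5p to miR-542-3p 0.13 (exact permutation p = 0.686), with adjusted p of 0.648, 0.648 and 0.686. Among the X-linked partners, 3 were tested one by one and none passed. miR-542-3p had a log2 fold change of 0.07 (adjusted p = 0.884), miR-450a-5p −0.11 (adjusted p = 0.801) and miR-450b-5p −0.43 (adjusted p = 0.499, all edgeR). miR-503-3p and miR-351-5p, with 49 and 15 counts in all, did not pass the filter, nor did miR-450b-3p, with 2 counts in HFrD replicate 3. miR-15a-3p, miR-497a-3p, miR-497b-5p, miR-195b, miR-503-5p, miR-351-3p and miR-542-5p had no entry under these names among the tag counts.

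miR-103-3p and miR-107-3p are related to the family by a seed shifted by 1 base, and are known in mouse liver as regulators of insulin sensitivity. They are printed for that shift, with bases 2 to 8 in capitals, from RefSeq on GRCm38.p6.
miR-103-3p: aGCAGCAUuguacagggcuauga
miR-107-3p: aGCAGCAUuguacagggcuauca
Both were more abundant than any member, at 1355 ± 118 CPM for miR-103-3p and 104 ± 13.7 CPM for miR-107-3p in chow (SD, n = 4 each). In HFrD they were at 1320 ± 113 and 135 ± 28.4 CPM (SD, n = 4 each). The log2 fold change was −0.04 for miR-103-3p (SE 0.10, adjusted p = 0.801) and 0.37 for miR-107-3p (SE 0.16, adjusted p = 0.157, both edgeR), so neither passed. The 2 sequences differ in 1 base near the 3′ end, and reads cut short there could be counted for either.

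Wider lists of miRNAs known to act on the cell cycle held no called member either, where 5.88% of all tested miRNAs were called. Of 19 miRNAs that restrain division, such as the let-7, miR-26, miR-29, miR-34 and miR-101 families, 18 were tested and 0 passed, with a median log2 fold change of 0.05. The closest was let-7d-5p, at 619 ± 128 CPM on chow and 814 ± 73.6 CPM on HFrD (SD, n = 4 each), with a log2 fold change of 0.39 and an adjusted p of 0.0677 in edgeR. Of 12 that promote division, such as the miR-17 to miR-92 clusters, 8 were tested and 0 passed, with a median of −0.12. miR-20a-5p was closest, at 355 ± 51.4 and 274 ± 19.8 CPM (SD, n = 4 each), with a log2 fold change of −0.37 and an adjusted p of 0.0566 in edgeR. At an unadjusted p under 0.05 the restraining list had 2 higher and 0 lower, and the promoting list 1 higher and 1 lower. Of all tested miRNAs 12.9% were higher and 10.6% lower at that level.

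The profile of miR-16-5p over the 8 samples was most like that of miR-3068-5p, with a root mean square distance of 0.104 between log2 CPM profiles centred on their means, followed by miR-20a-5p (0.200) and miR-881-3p (0.205). The median distance to all 169 other tested miRNAs was 0.443. The nearest profiles lie below that median by the way they were picked, and likeness was not tested. Profiles that vary little lie near each other by this measure. For miR-322-5p the nearest were miR-125b-5p (0.0880), miR-199a-3p with its copy miR-199b-3p (0.108) and miR-30e-3p (0.137). For miR-322-3p they were miR-183-5p (0.150), let-7d-3p (0.226) and miR-152-5p (0.228). miR-497a-5p was nearest to miR-335-3p (0.170), miR-195a-5p to let-7e-5p (0.205) and miR-15b-5p to miR-1981-5p (0.305). No member was among the 3 nearest of another member.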

How the data were processed

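Raw tag counts per mature miRNA were deposited as whole numbers for 8 libraries, per the file headers. Per the submitters' processing notes, Novoalign 3.02.12, cutadapt 1.9.2 and mm10 were used. The labels' protocols describe TRIzol RNA, ribosomal RNA depletion and a stranded total RNA library. The miRNA reference and the selection of small RNA were not given in the sources used here. A normalized score, also deposited by the authors, is the raw count divided by a number from 4.21 to 6.19 that is constant within a library, then rounded, and was used as an alternative.

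The 484 entries were merged by identical sequence into 443. Of 3544 cells, 1252 (35.3%) were blank and were read as 0; the smallest value was 2, so no floor was computed. edgeR 4.0.16 in R 4.3.3 fitted diet alone, with TMM factors and filterByExpr (minimum count 10), on the whole table. Its log2 fold changes are HFrD against chow and its test is two-sided. Arm ratios used limma 3.58.1 for hairpins with both arms at 2 counts or more on average. DESeq2 1.42.0, other scalings, no filter, merging by name, the replicate number as a block and leaving out each library were alternatives. The edgeR and limma steps were tested on simulated data, with changes larger than any estimated for a member here. Those tests do not show how well smaller changes would be found. Python 3.11.15, pandas 2.3.3, scipy 1.17.1 and matplotlib 3.10.9 were used. The text names all members, their other arms, cluster partners and related seeds, erythroid markers and the 3 nearest profiles, of which the nearest alone is given for 3 members. The members and lists were chosen with earlier results of these data known.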

Additional observations from a re-analysis of the deposited data

Results flagged for a closer look

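Of 38 groups of 4 libraries looked at, 3 held a library set apart from the other 3 by Dixon's ratio, and chance sets apart about 1 in 20. For miR-15a-5p, HFrD replicate 3 had 5.03 CPM and the other 3 HFrD libraries had blank cells, a difference that rests on 8 counts. For miR-195a-5p, chow replicate 3 was low (17.1 CPM) beside its 3 fellow libraries (23.8 to 24.9 CPM). For miR-322-3p, HFrD replicate 2 was high (48.8 CPM) beside its 3 fellow libraries (41.5 to 42.3 CPM). Causes were not tested.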

How the results depend on the processing

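The count of called members was 0 and became 1, always miR-16-5p, with DESeq2 and with the replicate number as a block, and ran from 0 to 1 without each library in turn. The count over all miRNAs, 10 of 170, was 14 of 140 with DESeq2 and 15 of 170 with the block, and became 23 with library totals, 1 with upper quartile factors, 22 with no filter and 20 when limma was run on the score deposited by the authors, and ran from 1 to 17 without each library (1 without chow replicate 2, 17 without chow replicate 3 and 6 without HFrD replicate 4). The cause was not tested. Library totals moved the median of all log2 fold changes from 0.01 to 0.13, and miR-16-5p was at −0.49 there (adjusted p = 0.113, edgeR). With the block, miR-16-5p was at −0.60 (adjusted p = 0.0464, edgeR). Samples with 1 replicate number are not known to be paired. The number is taken from their titles, while their descriptions carry other numbers. Their deviations correlated at 0.16, −0.10, 0.04 and 0.02 for numbers 1 to 4, and a shared batch was not tested. With DESeq2 the adjusted p of miR-322-5p was not given. The summed seed arms had a log2 ratio of 0.026 without miR-16-5p, −0.06 over library totals and −0.29 to −0.13 without each library.

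Some estimates changed sign under an alternative. No member, arm ratio or partner ratio was called in the main fit, so this could fall on uncalled results only. Leaving out each library, the log2 fold change ran from −0.020 to 0.39 for miR-15b-5p and from −0.017 to 0.27 for miR-195a-5p, the arm ratio difference from −0.68 to 0.82 for mir-15b and from −0.35 to 0.069 for mir-195a, and the ratio of miR-322-5p to miR-542-3p from −0.065 to 0.35. With 0.1 CPM added, mir-15b was at −0.47. The mir-16-1 ratio kept its sign in 12 alternatives, from −1.28 to −0.84. No arm ratio and no partner ratio was called under any alternative, but for 1 partner pair alone the adjusted p cannot go below 0.114, and with 3 against 4 samples the exact p itself cannot go below 0.0571. With 8 to 71 counts per library for the 5p arms past the filter, counting limits what could be seen.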
